A study of Mus musculus with 34 samples.

Results

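The genes described here are 10 genes of contractile smooth muscle cells and of the mural cells of blood vessels (Acta2, Tagln, Myl9, Tpm2, Cnn1, Myh11, Mustn1, Mgp, Ppp1r14a and Pdgfrb), followed through mouse pancreatic islets after partial loss of beta cells. They were taken by name from a table of 48709 genes, and all 10 were found and passed the low-count filter, with 17616 genes tested in all. The genes were chosen by name with expression values measured in these same libraries in view, and it is not recorded which comparison was looked at. Every value below is therefore a description of these libraries, and no count of these genes is independent evidence of a direction.

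RNA was sequenced from isolated islets of mice that all carried the genotype RIP-DTR HTZ. This transgene places the diphtheria toxin receptor under a rat insulin promoter, which is active in beta cells, and the untreated groups carry it too. Beta cells were removed either with diphtheria toxin (DT) or with streptozotocin (STZ, 75 mg/kg), a toxin taken up by beta cells. An early series held untreated islets (CTRL, n = 3) and islets labelled DT 5 DPA (n = 4) and DT 30 DPA (n = 4), read here as 5 and 30 days after ablation. A late series, labelled 10 weeks, held untreated, DT and STZ islets on the diets labelled SD (CTRL SD, n = 3, DT SD, n = 4, STZ SD, n = 4) and HFD (CTRL HFD, n = 4, DT HFD, n = 3, STZ HFD, n = 4), which are usual short forms of standard and high-fat diet. Nothing in the labels says that the libraries of a group came from separate animals, so the p-values below measure only the spread between these libraries, which may be technical. The labels give no age, sex or number of animals per library.

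Smooth muscle cells line arteries and arterioles, and pericytes wrap capillaries. In smooth muscle, actin and myosin filaments slide when the myosin light chain is phosphorylated, and a myosin phosphatase reverses this. Islets are densely supplied with capillaries whose pericytes and feeding arterioles set local blood flow. Many contractile genes share a control element called the CArG box, which is bound by serum response factor with its partner myocardin.

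The 33 libraries of the 9 groups held 11083117 to 18918348 counts each, and levels below are counts scaled to library totals (CPM) unless stated. The 10 islet endocrine genes, defining markers of the labelled tissue, summed to between 49870 and 350800 CPM. In 8 libraries the markers of intestinal enterocytes summed to over 500 CPM, with a highest sum of 21520 CPM. These were CTRL replicate 2, DT 5 DPA replicates 1, 2 and 4, DT 30 DPA replicate 2, STZ SD replicates 1 and 4 and DT HFD replicate 1. Markers of acinar cells, which make digestive enzymes, reached 738700 CPM in STZ HFD replicate 4, against at most 202300 CPM in any other of the 33 libraries. The TMM factor of that library was 0.464, against 0.764 to 1.25 in the others, so its CPM values are not shares of its own total. For the comparisons that use the 8 libraries, the median over the 10 genes is given with and without them, and for those that use STZ HFD, with and without its replicate 4.

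CArG boxes were looked for in the promoters because the filament genes varied together over the libraries, as described further on. The search used RefSeq promoter windows of build GRCm38.p6, from 250 bases before to 50 after a gene's start, and found windows for 6 of the 10 genes (Acta2, Myl9, Tpm2, Cnn1, Mustn1 and Ppp1r14a). The motif has 10 bases, namely CC, then 6 bases that are each A or T, then GG, and a near match had 5 of those 6 middle bases as A or T. The motif reads the same way on both strands, so both are covered by a single search. A full match lay in Myl9, and full or near matches lay in Acta2 and Myl9 but in none of the other 4 windows. Of all 32851 windows of this length, 1.63% held a full match and 9.98% a full or near match. The 4 matches are shown with 10 bases on either side, the motif in capitals, because Acta2 and Myl9 are among the filament genes that varied together. The first and second sequences are the near matches of Acta2 at chr19:34255438-34255467 and chr19:34255388-34255417 (minus strand), 84 to 75 and 34 to 25 bases before the RefSeq start and inside an exon of the GENCODE annotation. The third is the full match of Myl9 at chr2:156775293-156775322 and the fourth its near match at chr2:156775355-156775384 (plus strand), 161 to 152 and 99 to 90 bases before the start. These matches describe the letters of the windows only.
Acta2 first near match: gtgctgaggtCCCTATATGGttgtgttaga
Acta2 second near match: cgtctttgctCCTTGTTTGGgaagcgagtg
Myl9 full match: caagcagaggCCTAATAAGGccgggctggc
Myl9 near match: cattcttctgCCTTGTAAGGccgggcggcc

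Compared per unit of transcript length, with the deposited TPM values, the 10 genes spanned a wide range of levels. Mgp, which encodes matrix Gla protein, a secreted inhibitor of calcification, had the highest median over the 33 libraries at 76.0 TPM. Acta2 (smooth muscle alpha-actin) followed at 59.2 TPM, Myl9 (the regulatory light chain of smooth muscle myosin) at 57.5 TPM and Tagln (transgelin, an actin-binding protein) at 43.5 TPM. Myh11 (smooth muscle myosin heavy chain) had a median of 15.4 TPM, Tpm2 (beta-tropomyosin, which lies along the actin filament) 14.8 TPM, and Mustn1 (a small nuclear protein of the musculoskeletal system) 11.2 TPM. Pdgfrb, the receptor through which pericytes respond to platelet-derived growth factor, had a median of 7.81 TPM. Ppp1r14a, an inhibitor of myosin phosphatase also called CPI-17, had a median of 3.37 TPM, and Cnn1 (calponin 1) was the lowest at 0.911 TPM. Cnn1 was also the most thinly counted, with 1 to 86 counts per library, and Ppp1r14a had 10 to 111, so that counting error weighs most on this pair, while Acta2 had 305 to 2290.

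The 9 groups stood in a similar order for most of the filament genes, with STZ HFD or DT 5 DPA at the top and DT HFD at the bottom. Acta2 had a mean of 115.9 ± 31.1 CPM (SD, n = 4) in DT 5 DPA and 89.8 ± 7.64 CPM (SD, n = 4) in STZ HFD, followed by 68.7 ± 25.1 (n = 4) in DT 30 DPA, 65.4 ± 18.8 (n = 3) in CTRL and 63.1 ± 29.7 (n = 4) in STZ SD. Its means in the other late groups were 43.0 ± 14.2 CPM (n = 4) in DT SD, 40.6 ± 1.97 (n = 3) in CTRL SD, 35.8 ± 13.9 (n = 4) in CTRL HFD and 31.4 ± 15.9 (n = 3) in DT HFD. The ranges of all neighbours in that order of Acta2 overlapped. Tpm2, Mgp and Pdgfrb were likewise highest in DT 5 DPA, and Tagln, Myl9, Cnn1, Myh11, Mustn1 and Ppp1r14a in STZ HFD. The lowest mean was in DT HFD for 8 of the genes, in DT SD for Cnn1 and in CTRL HFD for Ppp1r14a. The ratio of the highest to the lowest group mean ran from 2.70 for Myh11 to 8.53 for Mgp. This order mixes the early and late series, whose untreated islets also differed. Mean Mustn1 was 11.7 CPM in CTRL and 5.94 CPM in CTRL SD, and mean Tagln 45.8 and 26.0 CPM. Ppp1r14a was level at 2.71 and 2.715 CPM, and the other genes had higher means in CTRL. The untreated groups of the 2 series were not tested against each other. In bulk islet RNA, more mural cells and more of these RNAs per cell cannot be told apart.

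**Figure D1:**
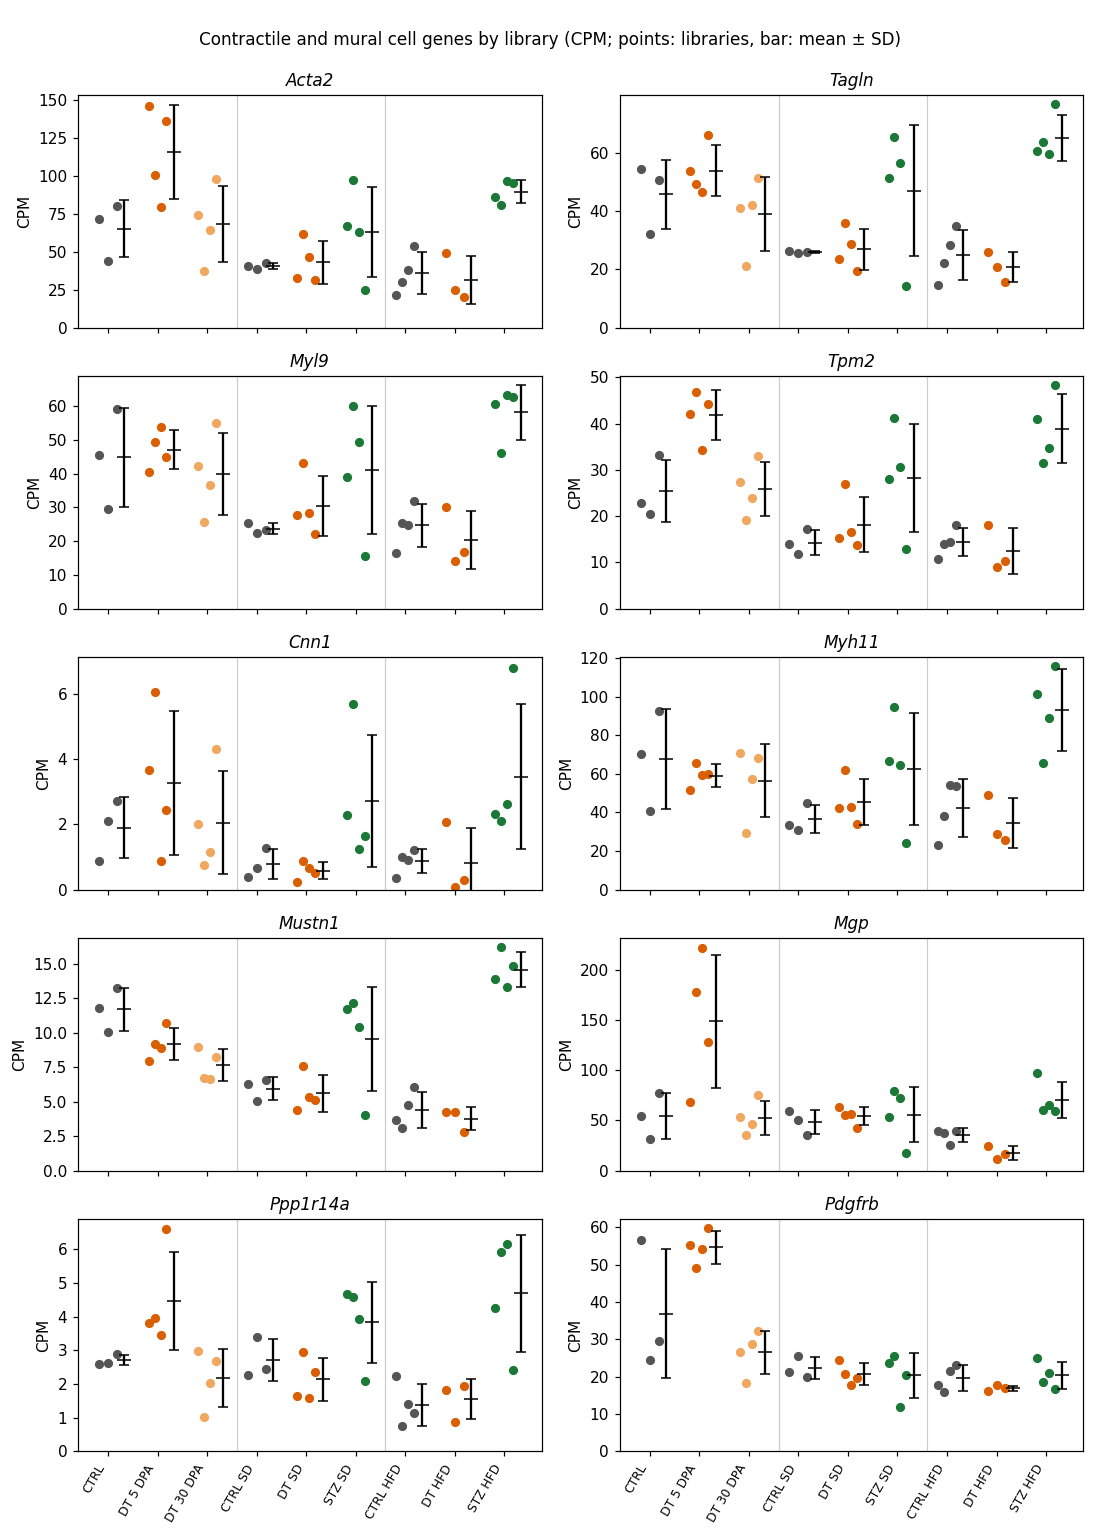
CPM (vertical axis) of each of the 10 genes in each library of the 9 groups (horizontal axis), with points for libraries and a bar for the group's mean ± SD, cut off at 0. Grey points are untreated, orange DT and green STZ libraries. In STZ HFD all 4 libraries of Mustn1 sit between 13.3 and 16.2 CPM, above every CTRL HFD library, whereas those of Pdgfrb, from 16.8 to 25.1 CPM, overlap the CTRL HFD libraries.

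In CPM, most of the 10 genes were higher in every STZ library than in every untreated library on the HFD diet at 10 weeks. This comparison asks what remains after STZ ablation under that diet. Mustn1 read 13.9, 16.2, 13.3 and 14.9 CPM in the 4 STZ HFD libraries and 3.63, 3.08, 4.79 and 6.06 CPM in the 4 CTRL HFD libraries. Every STZ HFD library was above every CTRL HFD library, and the log2 fold change was 1.73 (SE 0.26), or 3.32-fold, with an adjusted p of 0.00207 by edgeR's quasi-likelihood test with Benjamini-Hochberg adjustment. Tpm2 read 41.1, 31.4, 34.7 and 48.3 CPM against 10.8, 14.0, 14.5 and 18.2 CPM. Its ranges also lay apart, with a log2 fold change of 1.43 (SE 0.28) and an adjusted p of 0.0321. Tagln read 60.8, 63.6, 59.5 and 76.7 CPM against 14.7, 22.2, 28.3 and 34.9 CPM, again with no overlap. The log2 fold change of Tagln was 1.38 (SE 0.32), with an adjusted p of 0.0476. Ppp1r14a read 4.26, 5.91, 6.16 and 2.42 CPM against 2.23, 0.771, 1.40 and 1.13 CPM. Its lowest STZ HFD library, replicate 4, stood only just above the highest CTRL HFD library, replicate 2. The log2 fold change of Ppp1r14a was 1.76 (SE 0.38), with an adjusted p of 0.0393.

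In this comparison 4 of the 10 genes were called higher at an adjusted p under 0.05 and 0 lower, where 0.471% of all genes tested were called and 0.329% were called higher. The other filament genes did not pass the threshold although their CPM ranges did not overlap. Acta2 read 86.0, 80.8, 96.9 and 95.3 CPM in STZ HFD against 21.3, 29.8, 38.2 and 54.0 CPM in CTRL HFD, with a log2 fold change of 1.32 (SE 0.35) and an adjusted p of 0.0779. Myl9 read 60.5, 46.1, 63.2 and 62.7 CPM against 16.4, 25.5, 24.8 and 32.0 CPM, with 1.23 (SE 0.31) on the log2 scale and an adjusted p of 0.0602. Myh11 read 101.3, 65.9, 88.9 and 115.9 CPM against 22.9, 38.4, 54.3 and 53.5 CPM, with 1.14 (SE 0.34) and an adjusted p of 0.108. Mgp, the matrix protein gene, read 97.0, 59.9, 65.4 and 58.9 CPM against 39.4, 37.5, 25.4 and 39.2 CPM, with a log2 fold change of 0.99 (SE 0.37) and an adjusted p of 0.216. Cnn1 read 2.32, 2.12, 2.61 and 6.78 CPM against 0.349, 1.00, 0.894 and 1.21 CPM, with 1.97 (SE 0.74) and an adjusted p of 0.218. Of the 10 genes, 9 had all STZ HFD libraries above all CTRL HFD libraries, a separation that 4.22% of all genes tested showed. The median log2 fold change of the 10 genes was 1.35, against 0.02 over all genes.

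Pdgfrb was the gene without such a separation in CPM. It read 25.1, 18.5, 21.0 and 16.8 CPM in STZ HFD and 17.9, 15.9, 21.6 and 23.3 CPM in CTRL HFD, with a log2 fold change of 0.05 (SE 0.22) and an adjusted p of 0.962. The ranges overlapped nearly in full. The 18 other pericyte and mural cell genes tested, a list chosen like the 10 genes with earlier results of these data known, lay on both sides of 0. Their log2 fold changes ran from -0.41 (adjusted p 0.737) for Rgs4 to 1.36 (adjusted p 0.328) for Vtn, which encodes vitronectin, with a median of 0.18 and 11 of the 18 above 0. The highest level of Vtn, 141.1 CPM, was in STZ HFD replicate 4, against a median of 18.5 CPM over the 33 libraries. How far the value of Vtn rested on that library was not tested. Of the 18 genes, 0 were called by edgeR, 5 had an unadjusted p under 0.05 and 1 was called by DESeq2. Rgs5, a regulator of G-protein signalling that marks pericytes, stood at -0.16 (adjusted p 0.797), Notch3, the mural cell Notch receptor, at 0.06 (adjusted p 0.964) and Cspg4, which encodes the NG2 proteoglycan, at 0.15 (adjusted p 0.935). On the higher side of the list, Gja4, a gap junction gene, stood at 0.95 (adjusted p 0.113), Higd1b at 0.94 (adjusted p 0.293) and Rasl12 at 0.74 (adjusted p 0.282). The genes named here were chosen to show both sides of the list after their values were seen.

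The number of calls in STZ against untreated islets on HFD moved with single libraries and with the fit. It was 1 without CTRL HFD replicate 3 or replicate 4, 2 without CTRL HFD replicate 5, 2 without STZ HFD replicate 2, 2 without STZ HFD replicate 4, the library with the high acinar sum, and 0 when the 2 groups were fitted alone. Without the 8 libraries with enterocyte RNA, none of which belongs to either of these groups, it was 8. Mustn1 had an adjusted p of at most 0.0186 whichever library of the 2 groups was left out. Its fold change did not rest on STZ HFD replicate 4, since the log2 fold change without that library was 1.74 (SE 0.27) with an adjusted p of 0.00919. Without that library the median over the 10 genes was 1.31, and Cnn1 moved most, from 1.97 to 1.46.

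Other companion lists, chosen in the same way, gave the setting. Of 24 other contractile smooth muscle genes, 1 was called higher in STZ HFD against CTRL HFD and 0 lower, 14 had an unadjusted p under 0.05 and DESeq2 called 4. The edgeR call was Pdlim3, which encodes a Z-disc protein that binds alpha-actinin, with a log2 fold change of 1.53 (SE 0.28) and an adjusted p of 0.0176. In all, 21 of the 24 fold changes were above 0, with a median of 0.53. Of 24 regulators of the contractile programme, 0 were called by edgeR or DESeq2 and 3 had an unadjusted p under 0.05, with 14 above 0 and a median of 0.06. In that list the log2 fold change of Srf (serum response factor) was -0.03 (adjusted p 0.969), and that of Myocd (myocardin) was 0.67 (adjusted p 0.807).

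Markers of other cell types that could bring these RNAs were summed per library. The 14 fibroblast and stellate cell markers summed to 795 to 1116 CPM in STZ HFD and 537 to 834 CPM in CTRL HFD, with 13 of 14 fold changes above 0. Of them 0 were called by edgeR or DESeq2, and 3 had an unadjusted p under 0.05. The 12 endothelial markers summed to 584 to 932 CPM against 610 to 914 CPM, and the 12 markers of visceral smooth muscle and gut wall to 96.0 to 150 CPM against 93.6 to 116 CPM. The 12 acinar markers summed to 7969 to 738700 CPM against 36490 to 97980 CPM. All 12 acinar fold changes were above 0, with a median of 1.83 and 0 at an unadjusted p under 0.05. The 16 markers of skeletal and cardiac muscle summed to 7.43 to 12.3 CPM in STZ HFD and 3.96 to 7.01 CPM in CTRL HFD, with no overlap, and to 3.37 to 17.4 CPM over the 33 libraries, with Myh4 at 0 in all 33. Of the 8 that passed the low-count filter, 7 had fold changes above 0, with a median of 1.28, 0 were called by edgeR or DESeq2 and 1 had an unadjusted p under 0.05. The part of the fibroblast, acinar and skeletal muscle markers in the result was not tested.

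**Figure D2:**
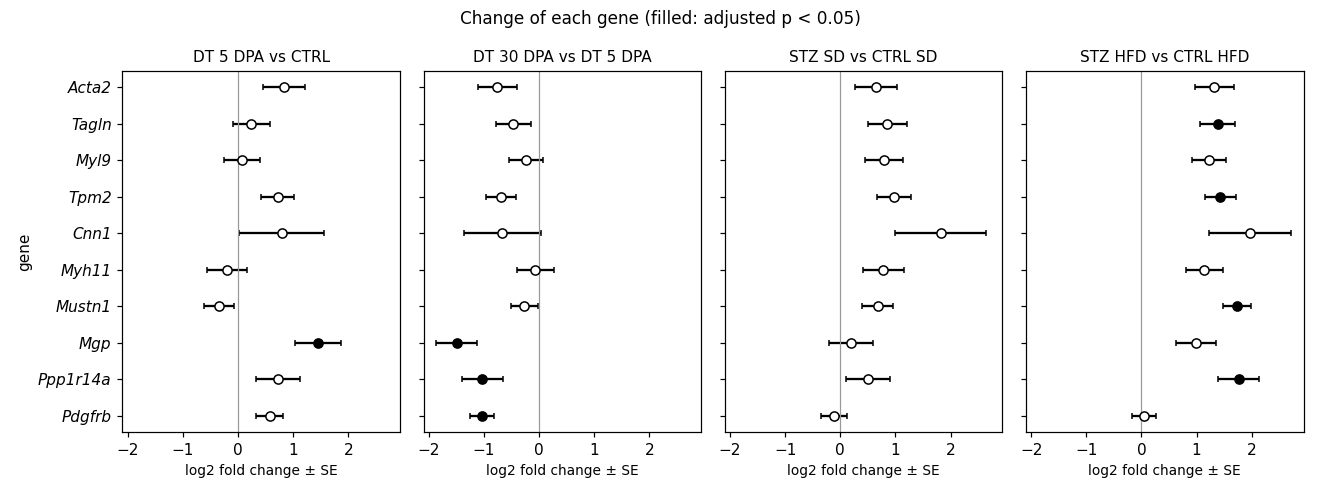
Log2 fold change (horizontal axis) of each of the 10 genes (vertical axis) in 4 comparisons, with bars of ± SE and filled points for an adjusted p under 0.05. On HFD with STZ 9 genes lie between 0.99 and 1.97 and Pdgfrb at 0.05, while 30 days against 5 days after DT all 10 lie below 0.

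On the SD diet the same treatment gave smaller values with a wider spread. In STZ SD against CTRL SD, edgeR called 0 of the 10 genes, where 0.00568% of all genes were called. At an unadjusted p under 0.05 there were 6 of the 10, against 1997 of all 17616 genes, and DESeq2 called 1, Tpm2. The median log2 fold change was 0.73, against 0.02 over all genes. Tpm2 read 28.0, 41.3, 30.6 and 12.9 CPM in STZ SD and 14.0, 11.8 and 17.1 CPM in CTRL SD, with a log2 fold change of 0.98 (SE 0.31) and an adjusted p of 0.142. Tagln read 51.5, 65.4, 56.5 and 14.4 CPM against 26.4, 25.6 and 26.0 CPM, with 0.85 (SE 0.35) and an adjusted p of 0.29. In both genes 3 of the 4 STZ SD libraries were above all CTRL SD libraries, and replicate 4 was inside or below their range.

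Replicate 4 of STZ SD had the lowest value of its group for Acta2, Tagln, Myl9, Tpm2, Myh11, Mustn1, Mgp and Ppp1r14a, and it was among the 8 libraries with enterocyte RNA. For Acta2 it read 24.9 CPM, where the others of its group read 67.2, 97.4 and 63.0 CPM. Pdgfrb did not share this, since replicate 4 read 20.5 CPM and the others 23.7, 25.6 and 11.8 CPM. Without replicate 4 alone the median log2 fold change against CTRL SD was 0.99 in place of 0.73, and edgeR still called 0 of the 10 genes. Tpm2 then stood at 1.22 (SE 0.28, adjusted p 0.127), Tagln at 1.15 (SE 0.28, adjusted p 0.149), and Pdgfrb at -0.13 (SE 0.26, adjusted p 0.961). Without all libraries with enterocyte RNA, which takes out replicates 1 and 4 of STZ SD, the median was 1.06, with 0 calls and Tpm2 at 1.33 (SE 0.27, adjusted p 0.077). The part of the enterocyte RNA in these values was not tested.

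The response to STZ on HFD was also set against that on SD by testing the difference of the 2 effects. Of the 10 genes, 0 were called by edgeR or by DESeq2, where 0% of all genes were called, and 2 had an unadjusted p under 0.05. These were Mustn1, with a difference of 1.05 (SE 0.37, adjusted p 0.659), and Ppp1r14a, with 1.26 (SE 0.55, adjusted p 0.701). The median difference was 0.49, against -0.01 over all genes, and all 10 were above 0 with all libraries in the fit. The median was 0.22 and 8 of the 10 were above 0 without the libraries with enterocyte RNA, with Cnn1 at -0.24, Myh11 at 0.00 and Myl9 at 0.02. Without STZ HFD replicate 4 the median was 0.42 and 9 were above 0, with Cnn1 at -0.38. STZ HFD against STZ SD gave 0 calls among the 10 genes by edgeR or DESeq2, where 0.136% of all genes were called, and 1 at an unadjusted p under 0.05, Mustn1 at 0.61 (SE 0.25, adjusted p 0.264). Its STZ HFD libraries were all above its STZ SD libraries, as for 1.22% of all genes. Without STZ SD replicate 4 the median of this comparison went from 0.47 to 0.20 on the log2 scale, and Acta2 from 0.51 to 0.24. Without all libraries with enterocyte RNA the median was 0.11, and without STZ HFD replicate 4 it was 0.44, so the gap between diets in the STZ groups rested in large part on STZ SD replicate 4.

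STZ was compared with DT within each diet, which sets the 2 ways of ablation side by side. These comparisons share the STZ libraries with those against the untreated groups, so they add no separate evidence. In STZ HFD against DT HFD, 5 of the 10 genes were called higher and 0 lower, where 0.341% of all genes were called and 0.0851% were called higher. The 5 were Mustn1 (1.95, SE 0.29, adjusted p 0.00517), Tpm2 (1.63, SE 0.31, adjusted p 0.0403), Mgp (2.01, SE 0.43, adjusted p 0.0406), Tagln (1.64, SE 0.36, adjusted p 0.0421) and Myl9 (1.51, SE 0.34, adjusted p 0.0463). Mgp read 24.8, 11.1 and 16.4 CPM in DT HFD, against 58.9 to 97.0 CPM in STZ HFD. Mustn1 read 4.24, 4.25 and 2.80 CPM in DT HFD. All STZ HFD libraries were above all DT HFD libraries for 9 of the 10 genes, as for 5.15% of all genes, and Pdgfrb at 0.27 (SE 0.24, adjusted p 0.64) was again the exception. The median over the 10 genes was 1.62, against 1.96 without the libraries with enterocyte RNA and 1.50 without STZ HFD replicate 4.

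The other lists are given for the same comparison. Of the 18 other pericyte genes, 17 had fold changes above 0, with a median of 0.50, where edgeR called 0, 7 had an unadjusted p under 0.05 and DESeq2 called 3. Acinar markers summed to 8146 to 23650 CPM in DT HFD and 7969 to 738700 CPM in STZ HFD. All 12 of their fold changes were above 0, with a median of 3.62, where edgeR called 0, 12 had an unadjusted p under 0.05 and DESeq2 called 11. Fibroblast markers summed to 527 to 732 CPM in DT HFD and 795 to 1116 CPM in STZ HFD, with 14 of 14 fold changes above 0 and 0 calls by edgeR, 4 at an unadjusted p under 0.05 and 1 by DESeq2. Endothelial markers summed to 476 to 633 CPM in DT HFD and 584 to 932 CPM in STZ HFD, with 11 of 12 above 0. Among them edgeR called Egfl7, a gene of the vessel lining, at 1.06 (SE 0.19, adjusted p 0.0387). Mesothelial markers had 7 of 8 fold changes above 0, with a median of 1.69, where edgeR and DESeq2 called 0 and 2 had an unadjusted p under 0.05. The part of these markers in the result was not tested.

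The calls of STZ HFD against DT HFD depended on which libraries were in the fit. Their number was 8 without DT HFD replicate 1, the library of that group with enterocyte RNA, and 1 without DT HFD replicate 2, STZ HFD replicate 3 or STZ HFD replicate 4. Without DT HFD replicate 3 it was 0, and with the 2 groups alone it was 0. DT HFD replicate 1 had the highest value of its group for the filament genes, for example 49.5 CPM of Acta2 against 24.6 and 20.1 CPM. Without it, Acta2 stood at 2.01 (SE 0.44, adjusted p 0.0265) in place of 1.51 (SE 0.39, adjusted p 0.0746). On SD, STZ against DT gave 0 calls among the 10 genes by edgeR, where 2.56% of all genes were called, with 5 at an unadjusted p under 0.05 and 2 by DESeq2, Cnn1 and Mustn1. The median was 0.59, and without the libraries with enterocyte RNA it was 0.94, with 0 calls. Cnn1 read 2.27, 5.70, 1.25 and 1.64 CPM in STZ SD and 0.246, 0.862, 0.674 and 0.502 CPM in DT SD, with no overlap, as for 3.81% of all genes, and 2.23 on the log2 scale (SE 0.76, adjusted p 0.0938). Mustn1 stood at 0.77 (SE 0.25, adjusted p 0.0856), and without STZ SD replicate 4 it was called at 1.03 (SE 0.21, adjusted p 0.0375). In the list of other contractile genes, 3 were called higher in STZ SD against DT SD and 1 lower. Among them were Tpm1, an alpha-tropomyosin, at 0.75 (SE 0.15, adjusted p 0.021), Mylk, the kinase that phosphorylates the myosin light chain, at 1.00 (SE 0.26, adjusted p 0.0388), and Hspb6, a small heat shock protein, which fell by 0.96 (SE 0.23, adjusted p 0.0324). Of the 24 regulators, 1 was called, Klf4, higher in STZ SD at 1.37 (SE 0.30, adjusted p 0.0261), with a list median of 0.03. Klf4 was also the 1 regulator called in STZ HFD against STZ SD, at -1.65 (SE 0.30, adjusted p 0.042). The part of the enterocyte RNA in the values of Klf4 was not tested.

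**Figure D3:**
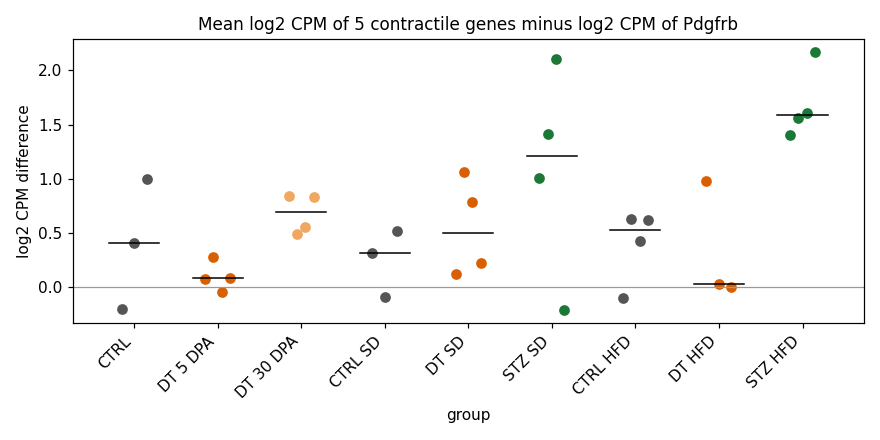
Mean log2 CPM of Acta2, Tagln, Myl9, Tpm2 and Myh11 minus the log2 CPM of Pdgfrb (vertical axis) for each library of the 9 groups (horizontal axis), with a line at the group's median. The 4 STZ HFD libraries lie between 1.40 and 2.17, above all libraries of the untreated, DT 5 DPA, DT 30 DPA, DT SD and DT HFD groups.

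To show filament genes and the pericyte receptor within a library, the mean log2 CPM of Acta2, Tagln, Myl9, Tpm2 and Myh11 was set against the log2 CPM of Pdgfrb. This contrast was chosen after the values had been seen and is given with no test. The difference was 1.40 to 2.17 in STZ HFD, with a median of 1.58, and -0.10 to 0.63 in CTRL HFD. In STZ SD it ran from -0.21 in replicate 4 to 2.10, and in CTRL SD from -0.09 to 0.52. It was -0.04 to 0.28 in DT 5 DPA, where Pdgfrb was at its highest, and 0.49 to 0.84 in DT 30 DPA. The 4 DT 30 DPA libraries thus all lay above the 4 DT 5 DPA libraries, while the 3 CTRL libraries, from -0.20 to 1.00, spanned both.

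At 5 days after DT, Mgp alone of the 10 genes passed the test. It read 67.8, 177.3, 221.1 and 127.6 CPM in DT 5 DPA and 54.1, 31.1 and 77.5 CPM in CTRL. Replicate 1 of DT 5 DPA lay below the highest CTRL library, and the other 3 lay above all CTRL libraries. The log2 fold change was 1.45 (SE 0.41), or 2.74-fold, with an adjusted p of 0.0357, and Mgp was the only call among the 10 genes, where 5.39% of all genes were called and 3.8% were called higher. The call was lost without CTRL replicate 1 (adjusted p 0.112), CTRL replicate 2 (0.118), DT 5 DPA replicate 2 (0.0809) or DT 5 DPA replicate 3 (0.11), and in the 2 groups alone (0.211). Without the 8 libraries with enterocyte RNA, which leaves 1 DT 5 DPA library assumed to vary like the other groups, it stood at 1.75 (SE 0.35) with an adjusted p of 0.0096.

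No filament gene passed the test at 5 days. Acta2 read 146.5, 100.8, 79.7 and 136.5 CPM in DT 5 DPA and 71.7, 44.3 and 80.3 CPM in CTRL, with a log2 fold change of 0.83 and an adjusted p of 0.228. Tpm2 read 42.1, 46.8, 34.3 and 44.2 CPM against 22.8, 20.6 and 33.2 CPM, with 0.72 and an adjusted p of 0.178. Tpm2 and Ppp1r14a (0.72, adjusted p 0.336) were the genes whose DT 5 DPA libraries were all above the CTRL libraries, as for 9.64% of all genes. Against this, Tagln stood at 0.24, Myl9 at 0.07, Myh11 at -0.20 and Mustn1 at -0.35 on the log2 scale. Cnn1 stood at 0.79 (SE 0.77, adjusted p 0.626), and at -1.03 (SE 1.11, adjusted p 0.74) without the libraries with enterocyte RNA. Pdgfrb read 55.3, 49.1, 54.3 and 59.9 CPM in DT 5 DPA and 56.5, 24.4 and 29.6 CPM in CTRL. Replicate 1 of CTRL stood inside the DT 5 DPA range and the other CTRL libraries far below it. The log2 fold change of Pdgfrb was 0.57 with an adjusted p of 0.182, and without CTRL replicate 1 it was 1.02 (SE 0.24) with an adjusted p of 0.0148. The median log2 fold change of the 10 genes was 0.64, against -0.05 over all genes, and without the libraries with enterocyte RNA it was 0.06, with Acta2 at 0.08.

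Other cell types moved at the same time. The fibroblast and stellate cell markers summed to 4576 to 7409 CPM in DT 5 DPA and 1042 to 1767 CPM in CTRL, with 8 of 14 called higher and none of the 14 at 0 in any library. The 9 macrophage markers summed to 4934 to 7285 CPM against 679 to 1733 CPM, with 9 of 9 called higher. The 8 mesothelial markers summed to 189 to 556 CPM against 51.6 to 92.9 CPM, with 2 of 8 called higher. The 12 endothelial markers summed to 698 to 909 CPM against 710 to 1293 CPM, with 0 called by edgeR, 2 at an unadjusted p under 0.05 and 1 by DESeq2. Fibroblasts also carry Mgp, Pdgfrb and, when activated, Acta2, and the part of these cells in the values of those genes was not tested. In the companion lists, edgeR called 0 of 24 other contractile genes (median 0.23), with 4 at an unadjusted p under 0.05 and 1 by DESeq2. It called 0 of 18 other pericyte genes (median 0.03), with 1 at an unadjusted p under 0.05 and 1 by DESeq2, and 0 of 24 regulators (median 0.06), with 1 and 0. Rgs5 stood at -0.05 (adjusted p 0.943).

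Between 5 and 30 days after DT, 3 of the 10 genes were called lower and 0 higher, where 30.5% of all genes were called and 13.9% were called lower. Pdgfrb read 26.7, 18.4, 28.7 and 32.2 CPM in DT 30 DPA. All of these were below the 49.1 to 59.9 CPM of DT 5 DPA, and its log2 level fell by 1.04 (SE 0.22, adjusted p 0.00129). Mgp read 53.0, 35.1, 46.4 and 75.4 CPM in DT 30 DPA, with 1 library above the lowest of DT 5 DPA, and fell by 1.50 (SE 0.37, adjusted p 0.00421). Ppp1r14a read 2.97, 1.02, 2.03 and 2.69 CPM against 3.81, 3.95, 3.47 and 6.62 CPM, with no overlap, and fell by 1.03 (SE 0.37, adjusted p 0.0357). Pdgfrb, Ppp1r14a and Tpm2 were the 3 genes whose DT 30 DPA libraries were all below those of DT 5 DPA, as for 16.5% of all genes. Tpm2 stood at -0.69 (SE 0.27, adjusted p 0.0554), Acta2 at -0.76 (SE 0.35, adjusted p 0.0988) and Myh11 at -0.07 (SE 0.33, adjusted p 0.895). The median of the 10 genes was -0.68, against 0.02 over all genes, and all 10 values were below 0 with all libraries in the fit. Without the libraries with enterocyte RNA the median was -0.23 and 2 of the 10 values, those of Myh11 (0.13) and Cnn1, were above 0, while Acta2 stood at -0.02 (SE 0.39, adjusted p 0.993).

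The call of Ppp1r14a in this comparison was lost without DT 30 DPA replicate 2 (adjusted p 0.12) or replicate 3 (0.072), and without DT 5 DPA replicate 1 (0.0517) or replicate 4 (0.143). Without the libraries with enterocyte RNA, which again leaves 1 DT 5 DPA library, Mgp was the only call at -1.93 (SE 0.32, adjusted p 0.000757), and Pdgfrb stood at -0.90 (SE 0.33, adjusted p 0.124). In that fit Cnn1 stood at 1.49 (SE 1.08, adjusted p 0.493) in place of -0.67. Other cell types moved in the same interval. Of the fibroblast markers 10 of 14 were called lower, with a summed level of 1270 to 1622 CPM at 30 days against 4576 to 7409 CPM at 5 days. Of the macrophage markers 9 of 9 were called lower, with a median of -2.64, and of the mesothelial markers 5 of 8 were called lower and 1 higher. Of the islet endocrine markers 8 of 10 were called higher, with a median of 1.41, where 16.5% of all genes were called higher. The part of these shifts in the values of the 10 genes was not tested.

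The companion lists in this interval are to be read against the 30.5% of all genes called and the 13.9% called lower. Of the 24 other contractile genes, 7 were called lower and 1 higher. Among those lower were Flna (filamin A, an actin cross-linker) at -1.06 (SE 0.23, adjusted p 0.00171), Mylk at -0.92 (SE 0.26, adjusted p 0.00938) and Des (desmin, the intermediate filament of muscle) at -1.01 (SE 0.30, adjusted p 0.0124). Of the 18 other pericyte genes, 1 was called, Rgs4, which was higher at 30 days by 1.87 (SE 0.43, adjusted p 0.0023). The 18 genes summed to 740 CPM in DT 30 DPA replicate 2, a library with enterocyte RNA, and to 409 to 458 CPM in the rest of that group. How far the value of Rgs4 rested on that library was not tested. Of the 24 regulators, 4 were called lower and 0 higher, a share near that of all genes called lower. They included Tgfb1, the growth factor that drives contractile genes in mural cells and fibroblasts, at -1.51 (SE 0.32, adjusted p 0.00123), Notch2, a receptor that acts in mural cell differentiation, at -1.22 (SE 0.29, adjusted p 0.00296), and Rhoa, the small GTPase upstream of actin assembly, at -0.53 (SE 0.13, adjusted p 0.00353).

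At 30 days against the untreated islets, edgeR and DESeq2 called 0 of the 10 genes, where 0.233% of all genes were called. At an unadjusted p under 0.05 there was 1, Mustn1, which read 8.97, 6.71, 6.63 and 8.23 CPM in DT 30 DPA and 11.8, 10.1 and 13.2 CPM in CTRL. All DT 30 DPA libraries of Mustn1 were below all CTRL libraries, as for 4.92% of all genes, with a log2 fold change of -0.61 (SE 0.27) and an adjusted p of 0.15. The other 9 values ran from -0.48 for Pdgfrb to 0.12 for Cnn1, and Mgp stood at -0.05 (SE 0.40, adjusted p 0.955). The median was -0.20, and -0.21 without the libraries with enterocyte RNA. The comparison shares the CTRL libraries with the one at 5 days.

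In the late DT groups the 10 genes gave few differences from their controls. In DT SD against CTRL SD, edgeR and DESeq2 called 0 genes, 0 had an unadjusted p under 0.05, and the values ran from -0.40 for Cnn1 to 0.36 for Myl9, where 0.0341% of all genes were called. In DT HFD against CTRL HFD, edgeR and DESeq2 called 0 of the 10 genes, where 0.00568% of all genes were called, and 1 had an unadjusted p under 0.05. This was Mgp, at 24.8, 11.1 and 16.4 CPM against 25.4 to 39.4 CPM in CTRL HFD, with a log2 fold change of -1.02 (SE 0.41) and an adjusted p of 0.371. All 3 DT HFD libraries of Mgp were below all CTRL HFD libraries, as for 6.4% of all genes. Leaving out the libraries with enterocyte RNA takes away 1 of the 3 DT HFD libraries, replicate 1. Mgp was then called lower at -1.37 (SE 0.28, adjusted p 0.0222). The median over the 10 genes was -0.22, and -0.61 without those libraries. The difference between the DT effects on the 2 diets gave 0 calls by edgeR or DESeq2 among the 10 genes, where 0% of all genes were called, and 1 unadjusted p under 0.05, Mgp at -1.18 (SE 0.57, adjusted p 0.318). Without the libraries with enterocyte RNA this difference of Mgp was called at -1.54 (SE 0.36, adjusted p 0.0434), and the median over the 10 genes was -0.85 in place of -0.29.

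Diet was compared within treatment. In DT HFD against DT SD, Mgp was called lower, where 23.5% of all genes were called, 8.46% lower and 15% higher. It read 62.8, 54.8, 56.7 and 42.2 CPM in DT SD, all above the 11.1 to 24.8 CPM of DT HFD, and the log2 fold change was -1.63 (SE 0.42) with an adjusted p of 0.00943. Mustn1 and Pdgfrb also had all DT HFD libraries below all DT SD libraries, as did 18.4% of all genes, at -0.57 (adjusted p 0.129) and -0.29 (adjusted p 0.385). Without DT HFD replicate 2 there were 0 calls over all genes, Mgp included, and without DT HFD replicate 1 Tpm2 was called lower besides Mgp. Leaving out the libraries with enterocyte RNA again takes away 1 of the 3 DT HFD libraries, replicate 1. The calls were then Acta2 (-0.96, SE 0.31, adjusted p 0.0208), Myl9 (-0.99, SE 0.26, adjusted p 0.00649), Tpm2 (-0.92, SE 0.27, adjusted p 0.0142) and Mgp (-1.99, SE 0.29, adjusted p 0.000631). The median over the 10 genes was -0.46 with all libraries and -0.84 in that fit, where Cnn1 stood at -1.57 (SE 0.93, adjusted p 0.194) in place of 0.50.

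The lists moved both ways between DT HFD and DT SD. Their calls are to be read against the 8.46% of all genes called lower and the 15% called higher. Without DT HFD replicate 2 none of these calls remained. Of the pericyte genes, 3 of 18 other pericyte genes were called lower, Rgs5 at -0.78 (SE 0.21, adjusted p 0.0132), Ndufa4l2, a mitochondrial protein gene rich in pericytes, at -0.95 (SE 0.29, adjusted p 0.0202), and Cox4i2, a cytochrome oxidase subunit gene, at -1.25 (SE 0.41, adjusted p 0.0295). Of the other contractile genes, 3 of 24 were called lower, among them Hspb6 at -1.27 (SE 0.25, adjusted p 0.00459) and Cald1 (caldesmon) at -0.74 (SE 0.20, adjusted p 0.0119), and 1 higher, Flna at 1.10 (SE 0.25, adjusted p 0.00551). Of the regulators, 6 of 24 were called higher and 0 lower, among them Tgfb1 at 1.51 (SE 0.34, adjusted p 0.00549) and Notch2 at 1.40 (SE 0.31, adjusted p 0.00515). Over that whole list, however, only 10 of the 24 fold changes were above 0, with a median of -0.35. Endothelial markers had 5 of 12 called lower, with a summed level of 476 to 633 CPM in DT HFD against 733 to 954 CPM in DT SD. Fibroblast markers had 2 of 14 called lower, and islet endocrine markers 5 of 10, with a summed level of 55470 to 149300 CPM against 257900 to 330300 CPM. Lymphocyte markers had 6 of 10 called higher and enterocyte markers 5 of 12. The part of these shifts in the values of the 10 genes was not tested.

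In CTRL HFD against CTRL SD edgeR called 0 of the 10 genes, as did DESeq2, where 0% of all genes were called, and 1 had an unadjusted p under 0.05. This was Ppp1r14a, which read 2.23, 0.771, 1.40 and 1.13 CPM in CTRL HFD against 2.27, 3.41 and 2.46 CPM in CTRL SD, at -0.96 on the log2 scale (SE 0.40, adjusted p 1). Its CTRL HFD libraries were all below its CTRL SD libraries, by a narrow margin, as for 4.23% of all genes. In DT SD against DT 30 DPA, where 0.0568% of all genes were called, edgeR and DESeq2 called 0 of the 10 genes and Cnn1 had an unadjusted p under 0.05, at -1.82 (SE 0.76, adjusted p 0.367). In that comparison 1 of the 10 fold changes was above 0, and the median was -0.42. There were 0 above 0 without the libraries with enterocyte RNA, and the median was -0.54.

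The 10 genes were then compared with one another over the 33 libraries, as Pearson correlations of log2 CPM, which share library depth and cell makeup and are given as a description. The 45 pairs had correlations from 0.29 to 0.95. The 10 pairs among Acta2, Tagln, Myl9, Tpm2 and Myh11 lay between 0.84 and 0.95, and between 0.84 and 0.92 after the group means had been removed. The closest pair was Acta2 and Tpm2 at 0.95. Mustn1 had correlations from 0.83 to 0.91 with these 5 genes, with Tagln the closest. Pdgfrb stood apart, with 0.29 to 0.60 with the same 5 genes and 0.08 to 0.32 within groups. Mgp was closest to Myl9 at 0.77, and Ppp1r14a to Mustn1 at 0.72.

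**Figure D4:**
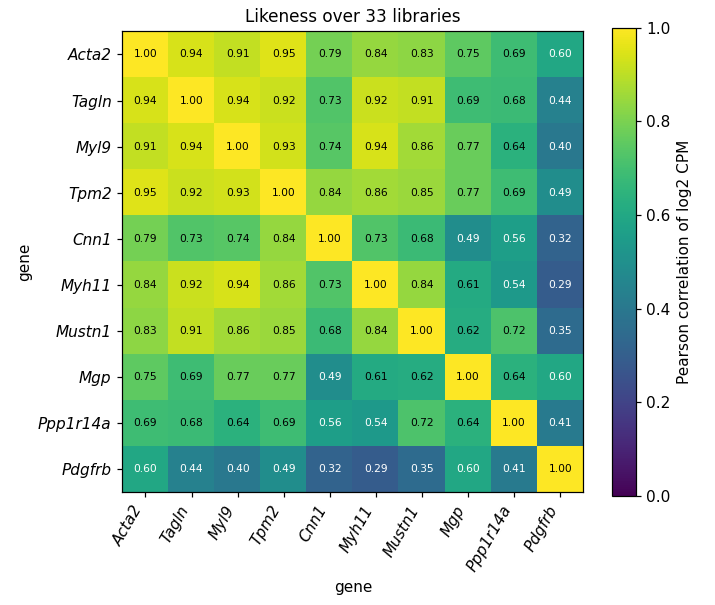
Pearson correlation of log2 CPM (colour and printed value) for each pair of the 10 genes (both axes) over the 33 libraries. The block of Acta2, Tagln, Myl9 and Tpm2 with Myh11 lies between 0.84 and 0.95, and the row of Pdgfrb between 0.29 and 0.60.

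The mean of the 10 standardised log2 levels served as a score for each library, and the genes outside the list most like it were named by rank among 13168 candidates. They were Jph2 (junctophilin 2) at 0.82, Lmod1 (leiomodin 1, which nucleates actin in smooth muscle) at 0.82, Ptrf (a coat protein of caveolae) at 0.82, Smtn (smoothelin) at 0.81, Nkd1 at 0.79, Ephb4 (an ephrin receptor of veins) at 0.78, S100a16 at 0.78, Cav1 (caveolin 1) at 0.78, Msrb3 at 0.78 and Wfdc1 at 0.77. Over all 17616 genes tested the median correlation with the score was -0.03 and the 95th percentile 0.47. After removal of group means Lmod1 had 0.84 and Wfdc1 0.29. The log2 sum of the other contractile genes had a correlation of 0.71 with the score, that of the fibroblast markers 0.63, of the mesothelial markers 0.58, of the visceral smooth muscle markers 0.52, of the macrophage markers 0.48, of the endothelial markers 0.45 and of the other pericyte genes 0.42. Those of the enterocyte (0.11), acinar (0.08), islet (-0.09), lymphocyte (-0.09), Schwann cell (0.13) and skeletal and cardiac muscle markers (-0.01) lay between -0.09 and 0.13.

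In build GRCm38, the assembly also called mm10, GENCODE M21 places the genes as follows. Acta2 lies at chr19:34241090-34255590 on the minus strand, Tpm2 at chr4:43514711-43523765 on the minus strand and Myl9 at chr2:156775420-156781658 on the plus strand. Myh11 lies at chr16:14194535-14291372 (minus), Mgp at chr6:136872435-136875823 (minus), Cnn1 at chr9:22099216-22109630 (plus), Mustn1 at chr14:30879200-30881610 (plus) and Ppp1r14a at chr7:29289308-29293801 (plus). Tagln at chr9:45929619-45936058 (minus) overlaps Pcsk7 and Gm48529 on the opposite strand. The libraries were made with a stranded kit, but no source used here gives the strand setting of the counting, so reads of Tagln and of its partners may not be separated. The other 9 genes overlap no annotated gene, and all 10 code for protein.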

How the data were processed

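Libraries were made from islet total RNA with a stranded mRNA kit, per the labels' protocols, and the submitters' processing notes name build mm10. Aligner, counter and strand setting: not given in the sources used here. Deposited by the authors were raw counts per gene, per the file headers ("Total counts"), and TPM values (scaled for transcript length and library total) per gene, per the file headers, which served here to compare levels between genes. TPM also served to look again at the separations of the STZ HFD libraries seen in CPM. Of 34 libraries, 33 were assigned to 9 groups, and 1 whose title and treatment label disagree was left out of every fit and comparison. Total counts ran from 11083117 to 18918348 per library.

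The 10 genes and all companion lists were chosen with earlier results of these data known. Counts were scaled by TMM and filtered with edgeR's filterByExpr (minimum count 10, minimum total 15), leaving 17616 of 48709 genes. All 33 libraries were fitted together by group with edgeR 4.0.16 (robust quasi-likelihood, R 4.3.3) with limma 3.58.1 as its dependency, in 15 comparisons. P-values were adjusted by Benjamini-Hochberg over all genes tested, with calls at an adjusted p under 0.05, and the SE is the log2 fold change divided by the root of the F statistic. CPM values (counts relative to a TMM-scaled library total) were computed here, and log2 CPM used a prior count of 2. Named companion genes were up to 3 called genes of smallest adjusted p per list and comparison, and the 10 genes most correlated with the score. Others (Rgs5, Notch3, Cspg4, Rgs4, Vtn, Gja4, Higd1b, Rasl12, Srf, Myocd) were added after their values were seen. Alternatives were DESeq2 1.42.0 (Wald test), DESeq2 size factors, other filters, hormone genes left out before scaling, the compared groups alone, a replicate block, libraries with enterocyte RNA left out, and each library left out in turn. The scripts were tested on simulated counts with known changes. Matching 6 of 10 genes, promoter windows came from RefSeq.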

Additional observations from a re-analysis of the deposited data

Results flagged for a closer look

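Of 60 tests (10 genes in 6 groups of 4 libraries), 5 found a library whose gap to its nearest neighbour took up more of the group's range than Dixon's 95% critical value allows. Chance gives about 1 in 20 groups. In STZ HFD, Myl9 was low in replicate 2 at 46.1 CPM, where the others read 60.5 to 63.2 CPM. Cnn1 was high in replicate 4 of the same group at 6.78 CPM against 2.12 to 2.61 CPM, in the library with the highest acinar sum. Mgp was high in STZ HFD replicate 1 at 97.0 CPM against 58.9 to 65.4 CPM. In CTRL HFD, Mgp was low in replicate 4 at 25.4 CPM against 37.5 to 39.4 CPM. In DT 5 DPA, Ppp1r14a was high in replicate 4 at 6.62 CPM against 3.47 to 3.95 CPM.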

How the results depend on the processing

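The values here are numbers of the 10 genes called, and the cause of each change was not tested. Of 120 counts under settings other than leaving out a library, 103 were equal to the reported count or within 1.5 times it. Most comparisons had a reported count of 0, where another 0 was taken as equal. The share thus says little about the comparisons with calls. With the compared groups alone the count was 0 in DT 5 DPA vs CTRL (1 as reported), 0 in STZ HFD vs CTRL HFD (4) and 0 in STZ HFD vs DT HFD (5). With DESeq2's Wald test it was 1 in STZ SD vs CTRL SD (0), 7 in STZ HFD vs CTRL HFD, 2 in STZ SD vs DT SD (0) and 8 in STZ HFD vs DT HFD. With no low-count filter it was 2 in STZ HFD vs CTRL HFD and 2 in STZ HFD vs DT HFD. Without the libraries with enterocyte RNA it was 1 in DT 30 DPA vs DT 5 DPA (3), 1 in DT HFD vs CTRL HFD (0), 8 in STZ HFD vs CTRL HFD, 4 in DT HFD vs DT SD (1), 9 in STZ HFD vs DT HFD and 1 in the DT by diet interaction (0). Leaving out each library in turn gave 0 to 1 in DT 5 DPA vs CTRL, 2 to 4 in DT 30 DPA vs DT 5 DPA, 1 to 4 in STZ HFD vs CTRL HFD, 0 to 2 in DT HFD vs DT SD, 0 to 1 in STZ SD vs DT SD and 0 to 8 in STZ HFD vs DT HFD. With the replicate number as a block the count was 1 in STZ HFD vs CTRL HFD and 1 in STZ HFD vs DT HFD. The labels share only numbers, since of 41 same-numbered pairs in 13 comparisons 12 had deviations correlated over 0.1 (range -0.18 to 0.65), and in 0 comparisons did all pairs. Of the 14 called fold changes, 0 changed sign under any setting run, while 26 of 112 values under other settings and 40 of 105 with a library left out no longer passed the threshold. Low counts limit Cnn1 and Ppp1r14a most.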

Other observations

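The library left out of all groups carries a CTRL HFD title and a DT treatment label. It read 119.7 CPM of Acta2, 79.6 CPM of Tagln, 51.3 CPM of Myl9, 40.2 CPM of Tpm2 and 55.2 CPM of Myh11. Its other levels were 9.30 CPM of Mustn1, 47.4 CPM of Mgp, 4.15 CPM of Ppp1r14a, 26.3 CPM of Pdgfrb and 0.620 CPM of Cnn1.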
